A study of Rattus norvegicus with 10 samples.

Results

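The genes for the proteins of the mitochondrial ribosome were taken from the table of the 5X-FA and 5X-MTHF dams by symbol, as the rows whose name starts with Mrpl or Mrps and a digit. The rule found 72 genes among the 12828 genes of the table, 43 named Mrpl, for the large subunit, and 29 named Mrps, for the small subunit. All 72 were annotated as protein-coding. The arcuate nucleus (ARC), a hypothalamic centre of appetite control, was macrodissected from Wistar rat mothers at parturition, and poly-A selected RNA was sequenced. The 10 dams had eaten folic acid (5X-FA, 5 dams) or methyltetrahydrofolic acid (5X-MTHF, 5 dams) at 5 times the recommended folate amount during pregnancy. The age of the dams was not given in the sources used here.

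The mitochondrial ribosome is built from proteins encoded in the nucleus, made in the cytosol and imported, and from rRNAs encoded by the mitochondrial genome. It translates the mRNAs of the mitochondrial genome, which encode core subunits of the respiratory chain and of the ATP synthase. Neurons depend heavily on oxidative phosphorylation, and inherited defects of several of these proteins cause disease of brain, heart or liver.

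A single value per gene could be used, the authors' average log2 CPM, the read count of a gene scaled to the size of its library, over all libraries. It is a share of reads and is not divided by transcript length, so a longer mRNA takes more reads at the same number of molecules, and the order of the genes below is an order of read shares. The table also held per-sample values, but under headings that name neither a dam nor a diet, and they were not used. No difference between 5X-FA and 5X-MTHF dams, no value by dam and no error between dams is therefore given for any gene. In bulk tissue, fewer cells of a type and less RNA per cell cannot be told apart.

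The markers of the dissected tissue were examined on the same scale. Of 7 arcuate markers, 6 had a row. Cartpt, Pomc and Tac3 had an average log2 CPM of 6.02, 4.67 and 4.34. Agrp, which marks the neurons that drive feeding, was low at 1.42, Ghrh was at 1.02 and Kiss1 at 0.08, and Npy was not analysed here. Of the markers of other hypothalamic nuclei, Pmch of the lateral hypothalamus at 9.24, Oxt at 8.33 and Avp at 7.96 were above each of these, and Hcrt at 5.68 was below Cartpt. The striatal markers were also present, with Ppp1r1b at 7.07, Drd1 at 5.01, Drd2 at 4.70 and Adora2a at 4.26, and of the cortical and hippocampal markers Slc17a7 was at 7.17 and Neurod6 at 2.40. The tanycyte markers Crym and Rax, which mark the cells lining the ventricle beside the nucleus, were at 5.53 and 0.08. Arcuate markers and markers listed for other regions were thus both present, several of the latter at higher read shares, and ARC is used below as the name of the dissected block.

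Oligodendrocyte and astrocyte markers took large shares of the reads, and microglial markers smaller ones. The oligodendrocyte genes Mbp and Mog had an average log2 CPM of 12.59 and 7.26, and the astrocyte genes Aqp4, Slc1a3 and Gfap were at 10.22, 9.73 and 9.62. The microglial genes Csf1r, Cx3cr1 and Aif1 were at 6.82, 4.46 and 3.83, and the endothelial genes Flt1 and Cldn5 at 6.28 and 5.77. The values of the ribosomal protein genes are thus averages over neurons, glia and vessels, and the part of each cell type in them was not tested.

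The 72 genes lay near the middle of the table. Their median average log2 CPM was 4.67, with 50% of them between 4.22 and 5.06, beside a median of 4.94 and quartiles of 3.65 and 6.18 over all genes. The members' median stood at percentile 44.3 of all genes. Within 1 log2 unit of their own median lay 65 of the 72 genes (90.3%), against 40.5% of all genes around theirs. A small spread was not particular to the set: its interquartile range was 0.83 log2 units, and those of the cytosolic ribosomal protein genes, the translation factors and the assembly factors described below were 0.98, 0.98 and 0.99. Below the lower quartile of all genes lay 4 of the 72 genes, between it and the median 46, between the median and the upper quartile 21, and above the upper quartile 1. Every gene of the set was above 1 CPM, a level below which 123 of all genes lay. The study's methods describe a filter on genes with few reads, so this holds for genes that have a row. Together the 72 genes had 1959 CPM in sum, or 0.196% of the sum over all genes.

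**Figure D1:**
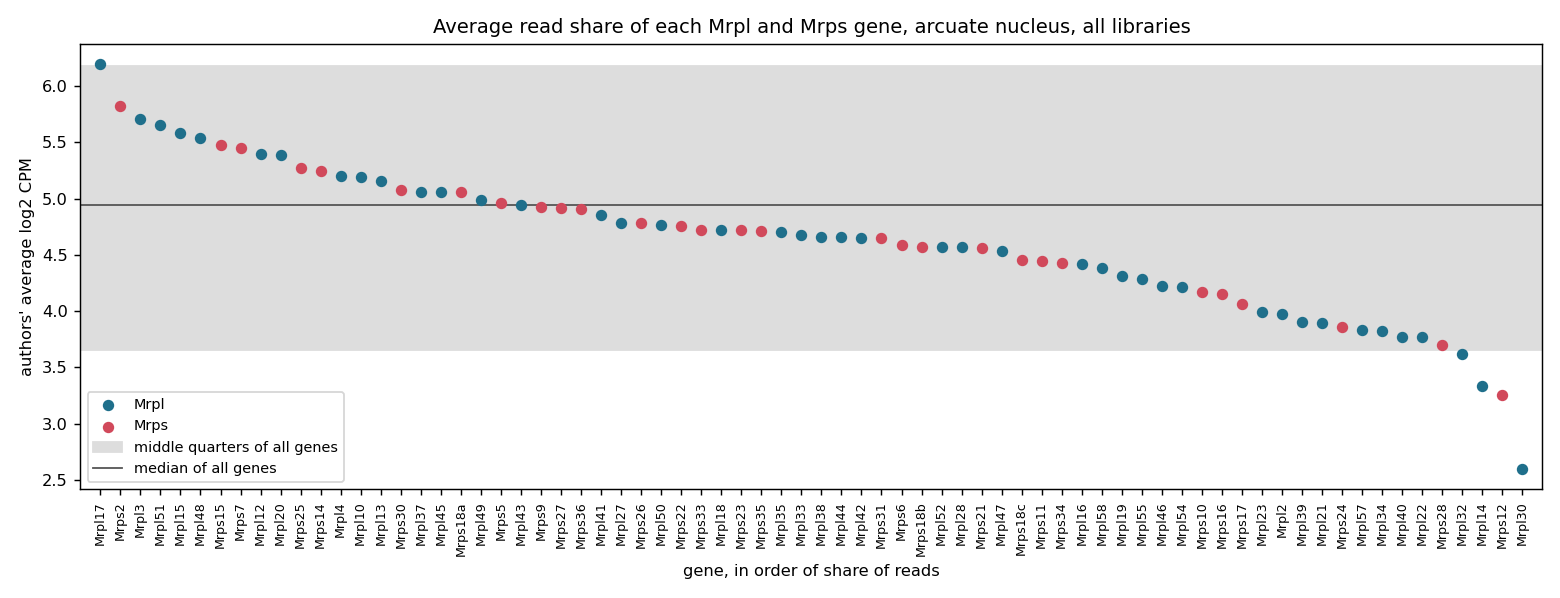
Average log2 CPM of each of the 72 genes, in order of read share, with Mrpl genes in blue and Mrps genes in red. The grey band runs from the lower to the upper quartile of all 12828 genes and the line marks their median of 4.94; Mrpl17 lies just above the band and 4 genes lie below it.

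The proteins of both subunits had similar read shares. The median average log2 CPM was 4.66 for the 43 Mrpl genes and 4.72 for the 29 Mrps genes. The Mrpl genes were the more spread, with an interquartile range of 0.96 log2 units against 0.51 for the Mrps genes. The symbols do not follow the structure in every case. The products of Mrps18a and Mrps30 are known to sit in the large subunit, and Mrps36 has been renamed Kgd4 in RefSeq, as a subunit of the oxoglutarate dehydrogenase complex. With Mrps18a and Mrps30 counted as large and Mrps36 as neither, the medians were 4.66 for 45 large-subunit genes and 4.68 for 26 small-subunit genes.

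The genes named here for proteins of the catalytic core and of the exit tunnel had average log2 CPM values from 3.77 to 5.71. They reached neither end of the set. Mrpl17, described below as the counterpart of a bacterial protein near the tunnel exit, was above them at 6.19. Mrpl3, whose bacterial counterpart reaches towards the peptidyl transferase centre, had an average log2 CPM of 5.71 and the third place among the 72 genes. Mrpl2, another protein near that centre, was at 3.98. Mrpl4, which lines the upper part of the tunnel, was at 5.20, and Mrpl22, which lines its narrow part, was at 3.77. Mrpl23 at the tunnel exit was at 3.99. Mrpl24, also at the exit, was written in lower case in the table and so fell outside the rule; its value was 4.54. Mrpl4 was thus more than 1 log2 unit above Mrpl22 and Mrpl23 in read share. Mrpl22, Mrpl23 and Mrpl24 lay within 1 log2 unit of each other.

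Of the stalk, the arm that recruits translation factors, Mrpl12 was at an average log2 CPM of 5.39 and Mrpl10, which anchors it, at 5.19. Mrpl12 has also been described as a partner of the mitochondrial RNA polymerase. Mrpl11, at the base of the stalk, was spelled in lower case and had 4.58. Both stalk genes within the rule were above the upper quartile of the set.

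A list of small-subunit genes named here, Mrps2, Mrps5, Mrps7, Mrps11 and Mrps12, included both ends of the range of the Mrps genes. Mrps2 had the highest read share of them, with an average log2 CPM of 5.82, and Mrps12, whose product lies at the decoding centre itself, the lowest, with 3.25. Mrps7 and Mrps5 were at 5.45 and 4.96, and Mrps11, of the platform that holds the exit-side tRNA and mRNA, was at 4.45. The 3 paralogs of bacterial S18 were closer together. Mrps18a was at 5.06, Mrps18b at 4.57 and Mrps18c at 4.45, and each of the 3 is known to occupy its own place in the ribosome.

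The 6 genes with the highest read shares were of mixed origin. Mrpl17 led with an average log2 CPM of 6.19, or 73.2 CPM (ENSRNOG00000019497, chr1:170652294-170653920 in Rnor_6.0), and is the counterpart of a bacterial protein near the tunnel exit. Mrps2 followed with 56.5 CPM (chr3:7051695-7058521) and Mrpl3 with 52.2 CPM (chr8:113603533-113626893). Mrpl51 and Mrpl48 encode proteins without a bacterial counterpart and had average log2 CPM values of 5.65 and 5.54. Mrpl15, which has such a counterpart, lay between them at 5.58. These 6 genes held 16.7% of the summed CPM of the set.

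At the low end, Mrpl30 had an average of 6.06 CPM (ENSRNOG00000049330, chr9:44483875-44571331 in Rnor_6.0), a read share 12.1-fold below that of Mrpl17. Mrps12 followed with an average log2 CPM of 3.25, or 9.54 CPM (chr1:86920680-86923575), and Mrpl14, part of a bridge between the subunits, with an average log2 CPM of 3.33 (chr9:17687622-17698569). Mrpl32, whose precursor is cut by a protease of the inner membrane before it joins the ribosome, was at 3.62. Mrps28 and Mrpl22 closed the group at 3.70 and 3.77. These 6 genes held 3.29% of that sum. In the assembled particle these proteins are present in equal numbers, with the multiple copies of Mrpl12 as an exception.

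The pattern of the rule is written with a capital, and 3 rows just outside it differed in that letter only. They were mrpl9 with an average log2 CPM of 4.70, mrpl11 with 4.58 and mrpl24 with 4.54, all between the quartiles of the 72 genes. RefSeq spells these 3 symbols in lower case too. RefSeq listed 81 protein-coding symbols of the family in either spelling, of which 74 had a row in the table and 7 were not analysed here.

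Some of the values are uncertain because reads can be shared. RefSeq names 38 pseudogenes after 22 of the 72 genes, and 9 of these are copies of Mrpl30. Pseudogenes named after other genes of the table were not counted. The 22 genes with such a copy had a median average log2 CPM of 4.45, and the 50 without one had 4.72. How reads that align to several places were counted was not given in the sources used here, and the part of these copies in the values was not tested. Mrpl17, the highest gene of the set, also has 2 such pseudogenes.

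The gene models of 8 of the 72 genes overlap another gene of the table in Rnor_6.0, over 48 to 76963 bases. These lengths are of whole gene spans with introns, and the overlap of exons was not examined. How often other genes of the table overlap was not counted. The longest overlap was that of Mrpl30 with Mitd1. In the RefSeq annotation of GRCr8, by contrast, the starts of Mrpl30 and Mitd1 lie 194 bases apart and point away from each other. Mrps18a overlapped Rsph9 over 6709 bases. Mrpl47 shared 1443 bases with Actl6a, Mrps7 772 bases with Gga3, Mrpl49 551 bases with Syvn1, Mrps2 259 bases with RGD1306233, Mrpl21 98 bases with Ighmbp2 and Mrpl43 48 bases with Twnk, the gene of the mitochondrial DNA helicase. The libraries were strand-specific, but whether strand was used in the counting was not given in the sources used here. Reads of overlapping genes may therefore have been mixed or dropped, and this was not tested. The median average log2 CPM was 4.97 for the 8 overlapping genes and 4.66 for the other 64.

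Other genes of mitochondrial translation spread on both sides of the set. Of 12 translation factors 11 had a row, with a median average log2 CPM of 4.62. Tufm, the factor that delivers aminoacyl-tRNA, was the highest at 5.90, followed by the translocase gene Gfm1 at 5.57, and the initiation factor gene Mtif3 was the lowest at 3.53. Of 6 ribosomal protein genes with other symbols 4 had a row, with a median of 5.15. Ptcd3 was at 6.14 and Dap3 at 5.44, both of the small subunit, and Chchd1 was the lowest at 4.54. Ict1, also on this list, is the older name of Mrpl58, a hydrolase built into the large subunit that was a member of the set at 4.38.

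Factors that assemble the ribosome and modify its rRNA took smaller shares of the reads. The median average log2 CPM of the 21 found of 22 was 3.89, at percentile 29.0 of all genes. Dhx30, an RNA helicase, and Ngrn, which acts on the large rRNA, stood apart at 6.86 and 6.14, and the GTPase gene Gtpbp10 was the lowest at 2.82. The tRNA ligases, with 18 of 19 found, had a median of 4.0 and a wider interquartile range of 1.93 log2 units, against 0.99 for the assembly factors. Gars and Kars, at 6.88 and 6.42, were the highest of them and are known to serve the cytosol as well as mitochondria, and Ears2 was the lowest at 2.59.

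The 5 genes for mitochondrial transcription and RNA binding had a median average log2 CPM of 4.57. Lrpprc, which stabilises mitochondrial mRNAs, was at 7.23. Its binding partner Slirp was the lowest of the list at 4.04, and the packaging factor gene Tfam, next to Lrpprc in order, was at 4.99. Oxa1l, the insertase that receives new proteins at the inner membrane, was at 5.77. Over these 5 genes, Oxa1l, the translation factors, the other-symbol ribosomal proteins, the assembly factors and the tRNA ligases together, 60 of 65 genes were found, with a median of 4.34 beside 4.67 for the Mrpl and Mrps genes.

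Cytosolic ribosomal protein genes took far more reads than their mitochondrial counterparts. They had 64 rows for 62 symbols, since Rpl32 and Rps27a have 2 rows each. The 64 rows had a median average log2 CPM of 7.24, at percentile 89.4 of all genes, and 10221 CPM in sum, 5.22-fold the sum of the 72 mitochondrial ribosomal protein genes. The highest were Rpl4 at 8.78 and Rpl3 at 8.57, and the lowest was Rpl39l at -0.18. Of the 64 rows, 53 were above Mrpl17, the highest of the mitochondrial set, and 5 were below the median of that set. These 5 included a row of Rpl32 at 0.94 and a row of Rps27a at 2.53, whose other rows were at 6.98 and 7.91. Many cytosolic ribosomal protein genes have processed pseudogenes, so their sums carry the same uncertainty from shared reads.

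**Figure D2:**
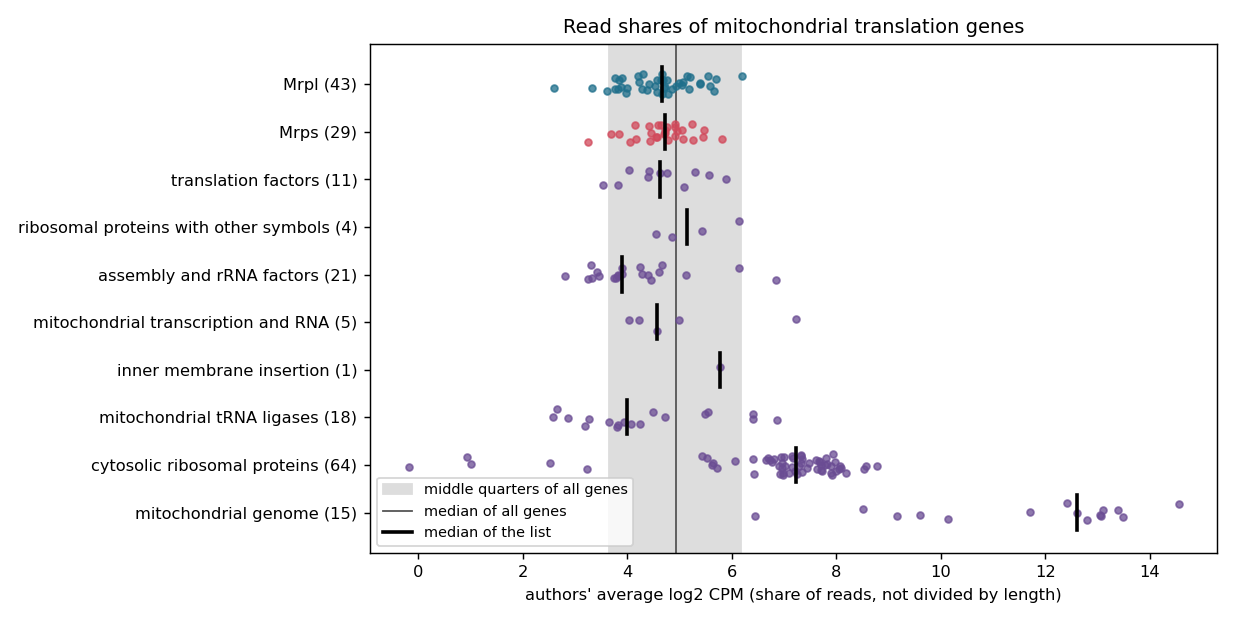
Average log2 CPM of each gene in the lists of mitochondrial translation, with the number of genes in brackets and a black bar at each median. The Mrpl and Mrps genes have medians of 4.66 and 4.72 and the cytosolic ribosomal protein genes one of 7.24. Most genes of the mitochondrial genome lie at the right, with Mt-nd6 the lowest of them at 6.44.

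Most of the mRNAs that this ribosome translates were among the most abundant of the table, with Mt-nd6, at an average log2 CPM of 6.44 and percentile 79.4, as the lowest. Their list was added after the values were seen. The 13 protein-coding genes of the mitochondrial genome summed to 87707 CPM, or 8.75% of the sum over all genes, 44.8-fold the sum of the 72 nuclear genes for the ribosomal proteins. Mt-co1, for a core subunit of cytochrome c oxidase, was the highest gene of the table at an average log2 CPM of 14.56. Genes of the mitochondrial genome have no introns, so that their span could be used as a length. Per kilobase, Mt-co1 had 15620 CPM (chrMT:5323-6867 in Rnor_6.0), followed by Mt-co3 with 14572 and Mt-atp6 with 12579. The lowest were Mt-nd4 with 265 and Mt-nd6 with 167 CPM per kilobase. The span of Mt-nd4 (chrMT:10160-11537) overlaps that of Mt-nd4l (chrMT:9870-10166), which had 1927 CPM per kilobase. Likewise, Mt-nd6 (chrMT:13543-14061) overlaps Mt-nd5 (chrMT:11736-13565), and Mt-atp6 overlaps Mt-atp8 and, by its last base, Mt-co3. For Mt-nd4 and Mt-nd6 the overlap is a small part of the span. Reads of these overlapping genes may have been mixed or dropped, and this was not tested. Mt-nd6 is transcribed from the opposite strand to all the others of the 13.

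The rRNAs of the mitochondrial ribosome were also in the table. The large one, listed as AY172581.24 (chrMT:1094-2664), had an average log2 CPM of 12.60 and 3965 CPM per kilobase, and the small one, AY172581.9 (chrMT:68-1025), had 11.72 and 3514 CPM per kilobase. Per length the rRNAs thus differed little from each other, and 8 of the 13 mRNAs stood above both. The libraries were selected for poly-A tails, and the share of these rRNAs that was captured was not tested.

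The 72 genes were spread over 18 chromosomes. Chromosome 10 held 12 of them (16.7%), while it held 8.23% of all genes of the table. Chromosome 9 held 7 (9.72%, against 3.93% of all genes) and chromosome 1 held 11 (15.3%, against 12.2%). None was found on chromosomes 18, 19 or X, which held 2.67%, 3.09% and 3.48% of all genes. These shares are counts of few genes and were not tested.

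**Figure D3:**
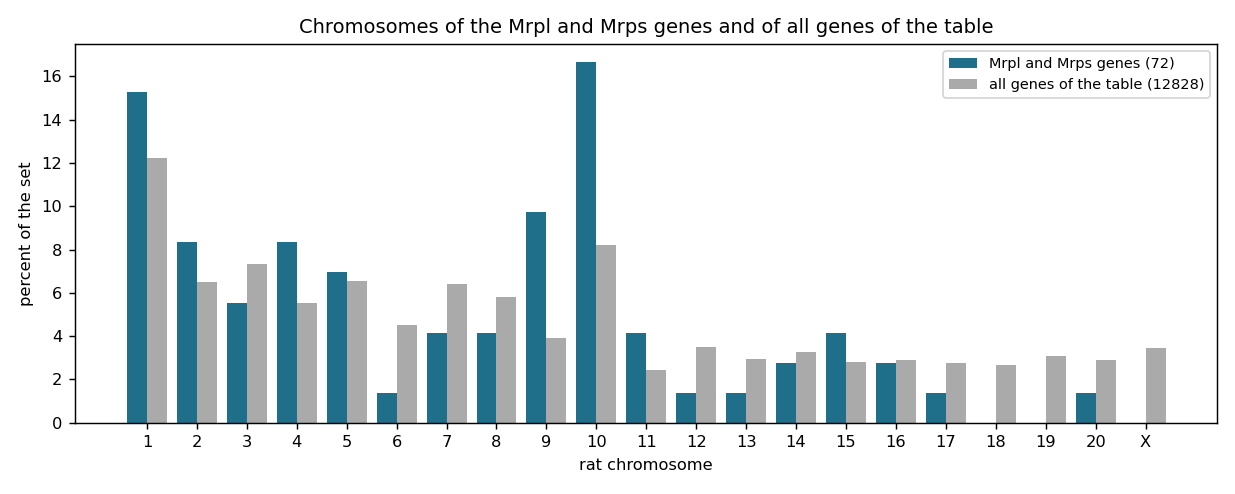
Percent of the 72 Mrpl and Mrps genes (blue) and of all 12828 genes (grey) on each rat chromosome. Chromosomes 10 and 9 hold 16.7% and 9.72% of the set against 8.23% and 3.93% of all genes.

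Less than 1 Mb separated 7 neighbouring pairs of the set, which involve 11 genes chosen after their positions were seen. How often other sets of this size hold such pairs was not tested. On chromosome 9, Mrps10, Mrpl2, Mrps18a and Mrpl14 followed each other with gaps of 0.997, 0.591 and 0.433 Mb. On chromosome 10, Mrpl58 and Mrps7 were 0.193 Mb apart and Mrps7 and Mrpl38 0.524 Mb, and Mrpl10 and Mrpl45 lay 0.273 Mb from each other. Between the members of these pairs lay from 1 to 16 other genes of the table. Mrpl46 and Mrps11 on chromosome 1 were direct neighbours, with 71 bases between their gene models (chr1:140469280-140477796 and chr1:140477868-140487248 in Rnor_6.0). These neighbours, for proteins of different subunits, had average log2 CPM values of 4.23 and 4.45.

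Mrpl46 and Mrps11 are read in opposite directions from starts that lie 234 bases apart in the RefSeq annotation of GRCr8, so that their promoter windows, from 250 bases before to 50 bases after each start, share 267 bases. Both are shown because the windows of a gene of each subunit overlap; promoter activity was not measured. The window of Mrpl46 lies on the minus strand at chr1:142116981-142117280 and that of Mrps11 on the plus strand at chr1:142117014-142117313. The capitals mark AAGATGGC, letters of the kind bound by the factor YY1, which begin 24 bases after the start of Mrpl46. Binding was not measured.
Mrpl46: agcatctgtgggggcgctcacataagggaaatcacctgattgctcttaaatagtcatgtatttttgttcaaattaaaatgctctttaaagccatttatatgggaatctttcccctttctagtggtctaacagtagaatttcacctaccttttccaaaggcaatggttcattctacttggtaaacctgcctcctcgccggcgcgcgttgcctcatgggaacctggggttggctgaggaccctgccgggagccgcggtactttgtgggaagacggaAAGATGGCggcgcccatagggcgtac
Mrps11: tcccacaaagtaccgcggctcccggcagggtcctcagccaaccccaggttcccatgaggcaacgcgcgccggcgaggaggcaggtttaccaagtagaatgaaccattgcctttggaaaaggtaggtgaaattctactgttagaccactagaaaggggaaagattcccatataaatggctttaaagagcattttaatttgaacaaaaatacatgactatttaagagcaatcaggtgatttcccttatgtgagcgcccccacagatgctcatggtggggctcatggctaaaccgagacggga

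Starts that face away from another gene were frequent in the set. Of the 57 genes with a promoter in the RefSeq table, 18 (31.6%) had a start on the opposite strand within 1000 bases that pointed away, against 1530 of 9409 protein-coding genes of the table (16.3%). In 14 of the 18 the distance was 300 bases or less, and the share at that distance among other genes was not counted. The partners, named after their positions were seen, included other mitochondrial genes, such as Ndufb5 of respiratory complex I, 244 bases from Mrpl47, and Ptcd2, a mitochondrial RNA-binding protein, 91 bases from Mrps27. Fau, which encodes a protein of the cytosolic small ribosomal subunit, lay 186 bases from Mrpl49. Psma2, for a proteasome subunit, lay 210 bases from Mrpl32, and Tcp1, for a chaperonin subunit, 425 bases from Mrpl18.

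The genes on either side of such a promoter differed in read share by more than 1 log2 unit in 8 of the 13 pairs in which both had a row (61.5%), against 256 of 409 such pairs over the protein-coding genes of the table (62.6%). Fau had an average log2 CPM of 7.56 and Mrpl49 had 4.99. Psma2 had 6.51 and Mrpl32 had 3.62, and Tcp1 had 7.35 and Mrpl18 had 4.72. In the other direction, Ncapd2, a condensin subunit gene 50 bases from Mrpl51, had 4.01 and Mrpl51 had 5.65. Mrpl46 and Mrps11 differed by 0.22 log2 units. The gene models of Mrpl30 and Mitd1 and of Mrps7 and Gga3 overlap in Rnor_6.0, so their reads may have been mixed or dropped. These pairs differed by 0.86 and 0.83 log2 units.

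The promoters of the set were searched for short motifs on both strands. They comprised 59 windows of 300 bases for 57 of the 72 genes, since Mrps21 and Mrpl14 had 2 each, and were compared with 10584 windows of protein-coding genes of the table and with all 33469 windows of RefSeq. The motifs were settled after shares of some of them had been seen, and a match is a description of the letters and not of binding. The median GC content of the set was 56.0%, below the 61.0% of the table's protein-coding genes and above the 51.7% of all windows. The ratio of observed to expected CpG was 0.79, beside 0.76 and 0.39.

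Motifs of the kind bound by YY1, ETS factors and NRF1 were held by more of the windows than in the comparison. AAGATGGC, of the YY1 kind, was in 14 of the 59 windows (23.7%), in 5.19% of the protein-coding windows and in 3.17% of all windows. CCGGAAG, of the ETS kind to which GABPA (also called NRF2) belongs, was in 19 (32.2%, against 16.3% and 8.75%). CGCATGCG, of the NRF1 kind, was in 6 (10.2%, against 3.44% and 1.66%). NRF1 and GABPA are known as regulators of nuclear genes for mitochondrial proteins. At least 1 of these 3 motifs was in 32 of the 59 windows (54.2%), against 22.7% of the protein-coding windows.

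Other spellings of the same motifs, which overlap them, gave smaller ratios to the protein-coding windows, so that the spellings above are those with the largest ratio of each kind among those given here. The longer AAGATGGCG was in 13.6% of the windows, against 3.50% of the protein-coding windows, and the shifted ATGGCGGC in 18.6%, against 5.64%. CCGGAAGT was in 11.9%, against 7.49%, and GGAAGTG in 16.9%, against 13.6%. The looser NRF1 spelling GCGCNTGCG, in which N is any base, was in 20.3%, against 12.5%.

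General promoter motifs showed no shared direction. CCAAT was in 42.4% of the windows, against 37.0% of the protein-coding windows and 37.5% of all windows, and in windows from 100 bases before the start, a limit chosen after seeing the data, the shares were 22% in the set and 22.1% in the protein-coding windows. The GC box GGGCGG was in 45.8%, less than the 61.8% of the protein-coding windows and more than the 33.1% of all windows. The E-box CACGTG was in 8.47%, against 9.15% and 6.42%, and the cyclic AMP element TGACGTCA in a single window, that of Mrpl55 (1.69%, against 3.01% and 1.83%). TATAAA was in 13.6%, above the 6.73% of the protein-coding windows and close to the 14.2% of all windows. In the windows from 100 bases before the start it was in 3.39%, against 3.28%. None of its 8 matches began from 50 bases before to 50 bases after a start, against 30.0% of the 804 matches in the protein-coding windows. The nearest began 82 bases before a start. The matches lay at 7 places, since Mrpl46 and Mrps11 share a match in the stretch between them.

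**Figure D4:**
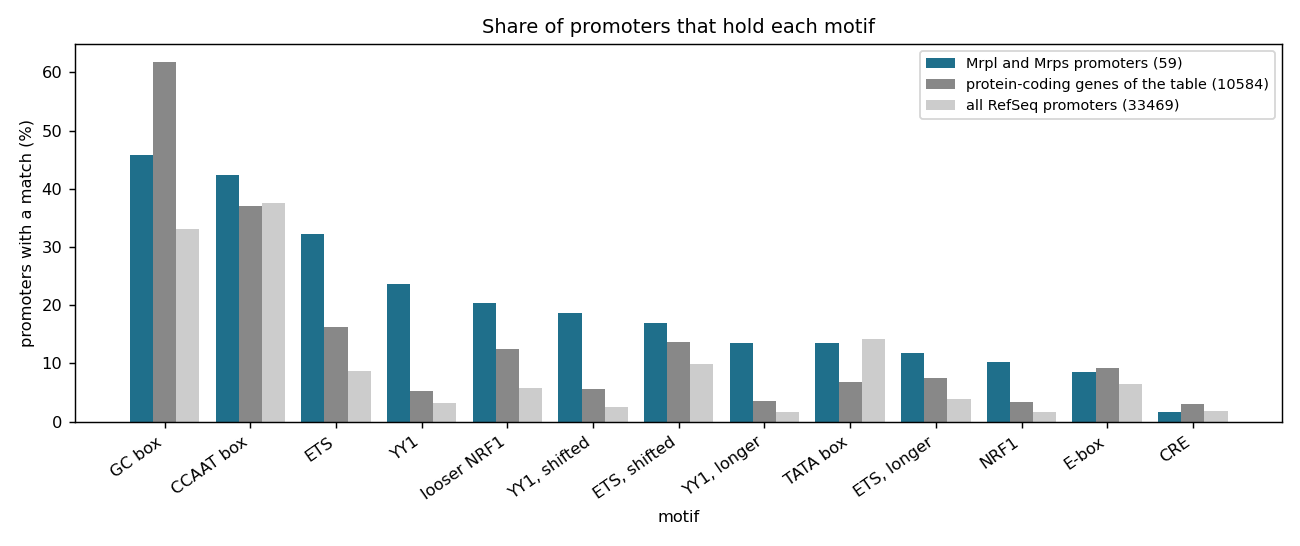
Percent of promoter windows with at least 1 match to each motif, for the 59 windows of the Mrpl and Mrps genes (blue), 10584 windows of protein-coding genes of the table (dark grey) and all 33469 windows (light grey). The ETS and YY1 motifs stand at 32.2% and 23.7% in the set against 16.3% and 5.19%, and the GC box stands at 45.8% in the set, between 61.8% and 33.1%.

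The places of the matches differed between motifs. Of the 14 YY1-type matches, 12 began within 50 bases of the start (85.7%, against 67.6% of such matches in the protein-coding windows), with a median of 17 bases after it. Of the 20 ETS-type matches, 15 lay in that stretch (75%, against 48.3%), with a median of 14.5 bases before the start. The 7 NRF1-type matches all began before the start, from 131 to 16 bases upstream. The CCAAT matches were scattered, with a median of 99 bases before the start. AAGATGGC contains the ATG triplet of a start codon, and whether a match after the start overlaps the translation start was not tested.

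**Figure D5:**
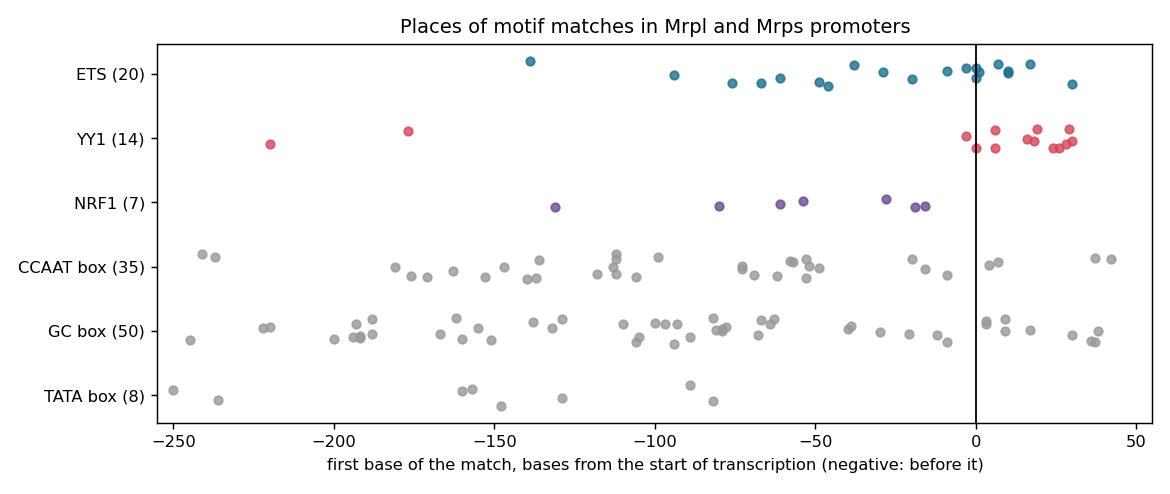
First base of each match to 6 motifs in the 59 Mrpl and Mrps windows, in bases from the start of transcription, which is the line at 0; points are scattered vertically to keep them apart. YY1-type matches gather just after the start, with 12 of 14 within 50 bases of it, and TATAAA matches lie 82 or more bases before it.

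Of the genes with each motif within 50 bases of the start, the gene with the highest read share is shown, with the capitals marking the motif. Mrpl17 holds CGCATGCG 54 and 16 bases before its start (chr1:169575650-169575949 of GRCr8, minus strand, 66.0% GC). Mrpl3 holds CCGGAAG 10 bases after its start in a window of only 42.7% GC, the lowest of the set (chr8:114548720-114549019, plus strand). Mrps7 holds AAGATGGC 6 bases after its start (chr10:101342392-101342691, plus strand, 63.7% GC).
Mrpl17: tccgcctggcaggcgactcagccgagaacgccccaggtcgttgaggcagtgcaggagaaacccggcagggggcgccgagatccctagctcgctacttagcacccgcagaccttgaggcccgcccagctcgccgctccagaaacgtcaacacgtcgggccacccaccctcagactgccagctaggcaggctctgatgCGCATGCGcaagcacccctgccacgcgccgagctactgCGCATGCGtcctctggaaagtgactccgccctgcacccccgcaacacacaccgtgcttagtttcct
Mrpl3: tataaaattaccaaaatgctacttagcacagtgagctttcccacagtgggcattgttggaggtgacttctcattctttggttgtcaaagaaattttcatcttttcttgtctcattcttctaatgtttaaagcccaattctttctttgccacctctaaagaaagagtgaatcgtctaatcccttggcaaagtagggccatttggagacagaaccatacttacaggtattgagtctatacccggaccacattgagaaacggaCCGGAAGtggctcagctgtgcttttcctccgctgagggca
Mrps7: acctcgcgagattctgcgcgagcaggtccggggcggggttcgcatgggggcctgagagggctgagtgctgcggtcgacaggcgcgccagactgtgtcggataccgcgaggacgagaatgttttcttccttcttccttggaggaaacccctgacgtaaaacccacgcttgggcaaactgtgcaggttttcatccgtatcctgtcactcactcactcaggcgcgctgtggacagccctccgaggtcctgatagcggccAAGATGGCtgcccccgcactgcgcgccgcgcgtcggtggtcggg

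The motifs did not separate the genes by read share. The 32 genes with any of the 3 motifs had a median average log2 CPM of 4.67, and the 25 genes with none had 4.72. Genes with the NRF1-type motif ranged from Mrpl17 at 6.19 to Mrpl32 at 3.62. Mrpl30, the lowest gene of the set, held the ETS-type motif, as did Mrpl3 near the top.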

How the data were processed

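Poly-A RNA of the macrodissected ARC of 10 dams, 5 per diet, was sequenced. Per the submitters' processing notes and the study's methods, the authors trimmed reads with Trim Galore 0.5.0, aligned them to Rnor_6.0 with STAR 2.6.0c and counted them per gene with HTSeq 0.6.1p2. The methods also describe a screen of the trimmed reads for rRNA and mitochondrial RNA. Whether such reads were removed, which would change the shares of the mitochondrial genome, was not given in the sources used here. The deposited table gives, per gene, the authors' average log2 CPM over all libraries, the measurement used here; 2 raised to these values summed to 1002152, which sets the log base. Its other columns, a log fold change between diets, a test statistic, a p-value and an adjusted p-value, are the authors' comparison and were not used. A further 10 columns of per-sample values match no label and were not used, so no depth per sample could be read from the table and the planned test of the diets was not made. Levels are given without replicates or error.

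Members and lists were chosen with earlier results of these data known. Named genes were the 6 highest and 6 lowest, the tunnel and stalk genes, Mrps2, Mrps5, Mrps7, Mrps11, Mrps12 and the Mrps18 genes. Of each other list they were the 2 highest and the lowest. Other genes were chosen after their values were seen. Some marker genes are not reported here. Symbols of 71 of the 72 members matched RefSeq (GRCr8), which also gave pseudogene names and promoter sequences. Percentiles are the share of genes below a value. Motifs were matched on both strands; longer spellings of the NRF1 motif and a further motif of over 9 letters were also looked at and are not reported. Computation ran in Python 3.11.15 with pandas 2.3.3, numpy 2.4.6 and, for binomial intervals, scipy 1.17.1; plots were drawn in matplotlib 3.10.9. The percentile and motif steps were tested on simulated data.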

Additional observations from a re-analysis of the deposited data

How the results depend on the processing

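The percentile of the members' median among all genes was 44.3. It was 42.8 among protein-coding genes only and 42.7 once genes averaging under 1 on the log2 CPM scale were dropped, in both cases because fewer low genes are compared. Further alternatives were chosen after seeing the data. Without the genes that have a RefSeq pseudogene it was 45.4, and the cause was not tested. In 5 other alternatives, which left out overlapping genes or the renamed Mrps36, added the 3 lower-case rows or placed the subunits by structure, each percentile stayed within the 95% binomial interval of its main value. That interval takes the genes of the table as draws, so it does not measure the error of the members' median. For the motif shares the 95% binomial interval was taken over the 59 windows. A promoter window from 100 bases before the start changed the shares of the TATA box (3.39%), the GC box (32.2%) and CCAAT (22%) beyond it. In the shorter window TATAAA and CCAAT were as frequent as in the protein-coding windows (3.28% and 22.1%). The other 10 motif shares stayed within the interval, but the shorter window lies inside the longer one, so the shares compared are not independent.

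The alternatives planned for the diet difference (pseudocount, filter, variance prior, normalization, leaving out each dam, replicate number as block) were not run, since no value belongs to a known dam. No paired analysis was possible because no column carries a replicate number. A level per coding length and a choice of members by description were not run, since no transcript length or description was at hand. The deposited averages carry no spread between dams, so low read shares, such as that of Mrpl30, are given without an error.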
